A study of Mus musculus with 11 samples.

Results

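The activity-regulated immediate early genes are genes whose transcription neurons switch on within minutes to hours of synaptic activity. A fixed list of 37 of them was read out of RNA sequencing of primary mouse hippocampal neurons that had received a miR-181a-5p mimic or a negative control oligonucleotide. Each member was chosen by name, as the row of the count tables whose Ensembl identifier maps to its symbol. All 37 were found among the 48709 genes counted, and all 37 passed the filter on low counts that left 17365 genes for testing.

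Primary hippocampal neurons from E17 embryos of CD1 mice, an outbred strain, were grown in a dish. The added oligonucleotide was carried into the cells by lipid nanoparticles on day 10 in vitro (DIV10), and RNA was taken after 48 hours, on DIV12. The control group held 6 samples with the negative control oligonucleotide and the mimic group held 5 samples with the miR-181a-5p mimic. According to the study's methods, the nanoparticles in both groups were given together with apolipoprotein E4, a lipid carrier protein, and hippocampi of several embryos were pooled for a culture. The labels do not say whether the samples came from separate cultures, so every p-value measures the spread between these samples, which may be technical. No agent that raises or blocks neuronal firing is named for these samples, so the members are described at the level they had in ongoing culture, with 1 time point. Marker genes fitted the label: the neuronal cytoskeletal gene Map2 was at 2608 CPM in control and the vesicle gene Snap25 at 889 CPM, where CPM is the count scaled to a common library size (TMM). The astrocyte glutamate transporter Slc1a2 was at 2398 CPM, and the study describes its hippocampal cultures as holding glia beside neurons. Total counts were 17287168 to 48091231 per sample, of which the members took 25585 to 71350.

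Calcium that enters through NMDA receptors and voltage-gated channels activates kinases of the CaMK, cAMP and MAPK routes, which phosphorylate CREB and the SRF partners waiting at the promoters of these genes. A first wave of products consists of transcription factors of the FOS/JUN, EGR and NR4A families, and another set acts directly at the synapse, such as Arc, the short Homer1 form and the growth factor BDNF. Feedback members, among them the dual-specificity phosphatases, switch the MAPK signal off again. A microRNA acts after transcription: its seed, bases 2 to 8 from the 5′ end, pairs with matching stretches of a messenger RNA, above all in its 3′ untranslated region (3′ UTR), and this lowers the stability or translation of that RNA.

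The added oligonucleotides and their natural relatives are printed 5′ to 3′ with the seed in capitals, since the seed decides which members hold a match. The 4 natural mouse miR-181 family members (RefSeq) share the seed of the mimic, and the negative control carries another.
mimic miR-181a-5p: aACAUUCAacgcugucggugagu
negative control: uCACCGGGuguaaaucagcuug
mmu-miR-181b-5p: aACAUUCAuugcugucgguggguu
mmu-miR-181c-5p: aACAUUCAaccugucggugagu
mmu-miR-181d-5p: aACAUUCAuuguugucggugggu

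The reverse complement of the seed, TGAATGT, was looked up in each gene's longest annotated 3′ UTR (GENCODE M21, genome build GRCm38). It was found once in each of 7 members: Bdnf, Dusp5, Egr3, Fos, Homer1, Inhba and Nr4a3. Each site is shown within 30 bases of 3′ UTR exon on the plus strand of its chromosome, with the match to the seed in capitals, and in Egr3 also the A that follows it.
Egr3, chr14:70081532-70081561: agcagtcttgacTGAATGTAtccttcctat
Homer1, chr13:93356610-93356639: ggactgtaaacaTGAATGTgaaatggcact
Nr4a3, chr4:48085130-48085159: actcaaaaacttTGAATGTcaaactgatgt
Fos, chr12:85477046-85477075: gtcgaggtggtcTGAATGTtctgacattaa
Bdnf, chr2:109726104-109726133: ttttttcaagcgTGAATGTgttagtggtta
Dusp5, chr19:53542312-53542341: cgtaaacccatgTGAATGTgaagagaagca
Inhba, chr13:16028769-16028798: ttcttaaaacaaTGAATGTttgtgtgcaaa

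The Egr3 site alone has an A after the 7 bases, opposite base 1 of the microRNA, which makes it an 8-base match. A share of 18.9% of the members holds the 7-base match, beside 19.2% of the 14512 tested genes with an annotated 3′ UTR. The match of the negative control oligonucleotide, searched the same way, was present in 2 members (5.41%) and in 3.36% of the tested genes. In Homer1 the site lies in 1 of 11 annotated coding transcripts, which encodes 186 residues, whereas the longest encodes 370. The transcript with the site has the length of the short, activity-induced Homer1a form, which lacks the coiled coil that links the long forms. The Nr4a3 site lies in both of its coding transcripts, and the Bdnf site in all 11.

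The comparison asked whether the members differ between mimic and control cultures. Of the 37 members, 6 were lower in the mimic samples, namely Homer1, Egr3, Nr4a3, Fosl2, Trib1 and Arc, and none passed the test in the other direction. These differences were small: of the 6 genes, Nr4a3 fell by 7.06% and Trib1, at the other end, fell by 16.5%. The other 31 members were not called. The test was edgeR's two-sided quasi-likelihood test over all 17365 genes with a Benjamini-Hochberg adjusted p under 0.05, which is what "called" means here and below. Across all tested genes 1.77% were called lower and 1.08% higher, against 16.2% and 0% of the members. At an unadjusted p under 0.05 in edgeR, 8 members were lower and 1, Maff, was higher, beside 1460 and 1267 of all tested genes. In the higher direction DESeq2 and limma also called 0 members. RNA from whole cultures cannot tell fewer cells of a type from less RNA per cell, which holds for every value given here.

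The median log2 fold change over the members was -0.043, beside -0.00015 over all tested genes. Of the members 24 were below 0 (64.9%) and 13 above, beside 50.1% of all tested genes below 0. Only Egr3 and Fosl2 (5.41% of the members) had every mimic sample below every control sample, a pattern seen in 1.73% of tested genes. The opposite pattern was found in 0 members and in 1.16% of tested genes. All 5 mimic samples lay below the control mean for 8 members, the 6 called ones with Egr1 and Nr4a1, and above it for 3, Btg2, Dusp1 and Maff. The share of all tested genes with either pattern was not counted. Well measured genes are called more often, so the 25 members at or above 10 CPM in control were also set beside the tested genes at that level: 5 of them (20%) were called lower, beside 2.93%.

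**Figure D1:**
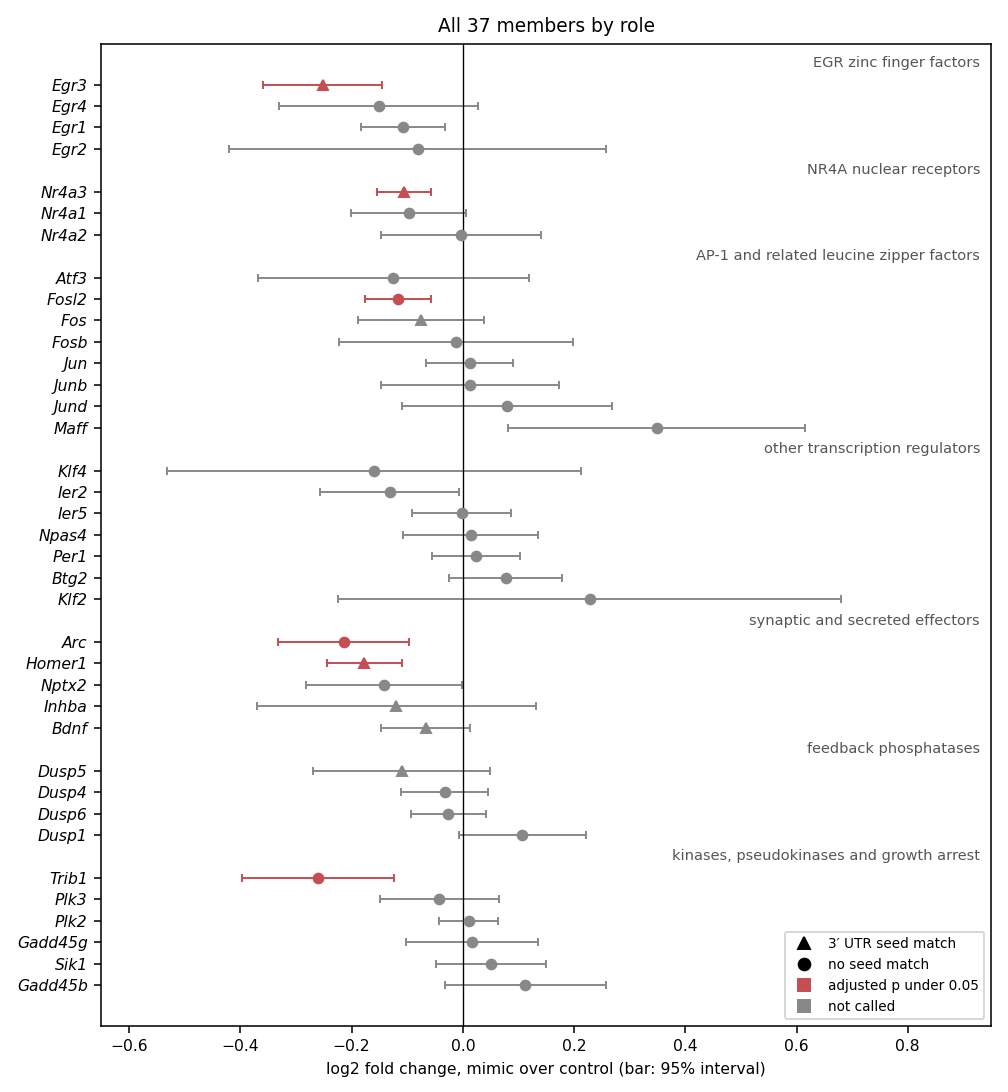
Log2 fold change (mimic over control, horizontal axis) of all 37 members grouped by role, with bars for the 95% interval, red for members with an adjusted p under 0.05 and triangles for those with a seed match in the 3′ UTR. The EGR factors, NR4A receptors and synaptic effectors all lie left of 0, and the 6 called members lie between -0.26 and -0.11. The phosphatases, kinases and other regulators lie on both sides of 0, with the called Trib1 (-0.26) in the kinase group.

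The EGR proteins are zinc finger transcription factors that bind GC-rich promoters. All 4 had negative log2 fold changes, from -0.25 to -0.08, and 1 was called. Egr3 (ENSMUSG00000033730, chr14:70077203-70082614, plus strand) takes part in the longer-lasting responses to activity. Its control values ran from 22.2 to 26.6 CPM with a median of 24.3, and the mimic samples 1 to 5 had 21.5, 20.6, 21.1, 20.8 and 18.1 CPM. No mimic sample reached the lowest control sample, and mimic replicate 5 was lower than the rest of its group. The difference was a log2 fold change of -0.25 (SE 0.055, adjusted p = 0.0113) and the level fell by 16.0%. The means were 24.3 ± 1.99 CPM over the 6 control samples and 20.4 ± 1.37 CPM over the 5 mimic samples (SD here and below).

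Egr1, the family member most used to mark active neurons, had 52.4 to 59.2 CPM in control (median 57.1) and 56.5, 51.0, 54.5, 53.7 and 48.0 CPM in the mimic samples. Every mimic sample was below the control mean but only 2 were below the lowest control sample. Its log2 fold change of -0.11 (SE 0.039) had an unadjusted p of 0.00907 and did not pass the adjustment (adjusted p = 0.140). Egr4, a more narrowly brain-expressed relative, had 16.3 to 22.1 CPM in control (median 19.8) and 20.1, 19.0, 17.8, 16.3 and 14.9 CPM in mimic. These groups overlapped over most of their range (log2 fold change -0.15, SE 0.091, adjusted p = 0.485). Egr2, better known from myelinating cells, was nearly silent, with 1.10 to 1.91 CPM in control (median 1.47) and 1.82, 1.44, 1.08, 1.04 and 1.42 CPM in mimic. With 20 to 62 counts per sample, its 95% interval of -0.42 to 0.26 on the log2 scale leaves a change as large as that of Egr3 undetectable at this depth (adjusted p = 0.892).

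The NR4A proteins are orphan nuclear receptors that bind DNA without a known natural ligand. Nr4a3 (ENSMUSG00000028341, chr4:48045153-48086447, plus strand) had by far the most counts of any member and fell. Control samples had between 484 and 513 CPM with a median of 504, and the mimic samples had 487, 457, 469, 448 and 462 CPM. Of the 5 mimic samples, 4 were below the lowest control sample, and mimic replicate 1 lay just above the 2 lowest controls. Means of 499.6 ± 11.9 CPM in control and 464 ± 14.8 CPM in mimic gave a log2 fold change of -0.11 (SE 0.025, adjusted p = 0.0187), so the level fell by 7.06%. The call was lost, with adjusted p up to 0.0842, when control replicate 1, mimic replicate 2 or mimic replicate 4 was left out.

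Nr4a1, also known as Nur77, had 15.0 to 17.3 CPM in control (median 15.9) and 15.4, 15.4, 15.5, 13.3 and 15.2 CPM in mimic. All 5 mimic samples were below the control mean, but 1 alone was below the lowest control sample, and the gene was not called (log2 fold change -0.10, SE 0.053, adjusted p = 0.388). Nr4a2, which marks dopamine neurons in the midbrain, did not separate the groups at all, with 9.68 ± 0.636 CPM in control and 9.73 ± 1.27 CPM in mimic (adjusted p = 0.994). Leaving out single samples turned its direction, and 3 other ways of fitting did too.

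The 8 AP-1 and related leucine zipper factors dimerise to bind AP-1, CRE or Maf sites. They split evenly, 4 below 0 and 4 above, and 1 was called. Fosl2 (ENSMUSG00000029135, chr5:32135801-32157842, plus strand), a late and lasting FOS relative, had 97.1 to 106 CPM in control (median 101). The mimic samples had 95, 91.4, 96.1, 94.6 and 88.6 CPM, all below the lowest control. This gave a log2 fold change of -0.12 (SE 0.030, adjusted p = 0.0300), so that Fosl2 fell by 7.77%. Its call was lost in 7 of 18 alternative fits, with an adjusted p of at most 0.0958, among them those without control replicate 1, 3 or 5 or mimic replicate 2, 4 or 5.

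Fos, the classic reporter of recent activity, had 11.4 to 13.1 CPM in control (median 12.1) and 11.3, 12.1, 10.8, 12.1 and 10.9 CPM in mimic. The groups overlapped, with 3 mimic samples just under the lowest control, and Fos was not called (log2 fold change -0.08, 95% interval -0.19 to 0.04, adjusted p = 0.598). Fosb, whose splice form ΔFosB accumulates with repeated activity, had 3.75 to 4.26 CPM in control (median 3.91). Its mimic samples spread much wider, with 5.42, 3.57, 3.46, 4.18 and 3.17 CPM, so that the highest and the 3 lowest samples of the experiment were all mimic. The log2 fold change was -0.01 (SE 0.107, adjusted p = 0.979).

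Junb had 16.5 to 24.4 CPM in control (median 21.9) and 23.3, 21.8, 23.3, 20.8 and 18.7 CPM in mimic, a log2 fold change of 0.01 (SE 0.082, adjusted p = 0.966). Every mimic value lay inside the control range. Its exons share 173 bases with Prdx2 on the opposite strand, a gene with 52721 counts over all samples beside 5838 for Junb, and the library kit named in the labels does not mark strand, so reads from those bases cannot be told apart. Maff, a small Maf protein without an activation domain, was the member with the largest positive value. It had 1.87 to 3.56 CPM in control (median 2.30) and 2.99, 2.81, 4.06, 2.71 and 2.80 CPM in mimic. All mimic samples were above the control mean, yet the highest control exceeded 4 of them, and the log2 fold change of 0.35 (SE 0.136, unadjusted p = 0.0166) did not pass the adjustment (adjusted p = 0.188). Jun, Jund and Atf3 were not called either, with adjusted p between 0.721 and 0.930.

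None of the 7 other transcription regulators was called by edgeR or by DESeq2, and 1 of them, Ier2, had an unadjusted p under 0.05. Npas4, a factor that responds to calcium entry alone and not to growth factors, had 9.76 to 12.3 CPM in control (median 10.7) and 11.1, 11.7, 10.4, 9.998 and 11.3 CPM in mimic. Its groups covered the same range (log2 fold change 0.01, 95% interval -0.11 to 0.14, adjusted p = 0.954). Ier2, a small nuclear protein, had 10.5 to 11.6 CPM in control (median 11.4) and 11.4, 11.2, 10.7, 9.56 and 8.81 CPM in mimic. The 2 lowest samples were mimic and the other 3 fell within the control range (log2 fold change -0.13, SE 0.064, unadjusted p = 0.0495, adjusted p = 0.316). Btg2, an antiproliferative cofactor, had 12.7 to 14.0 CPM in control (median 13.1) and 13.8, 13.2, 14.9, 14.1 and 13.7 CPM in mimic, all above the control mean of 13.2 CPM but not called (log2 fold change 0.08, SE 0.052, adjusted p = 0.528). The Kruppel-like factors Klf2 and Klf4 had at most 53 counts in any sample and wide intervals, from -0.22 to 0.68 for Klf2 and from -0.53 to 0.21 for Klf4. The clock gene Per1 and the nuclear protein gene Ier5 were within 0.03 of 0 on the log2 scale, with adjusted p of 0.858 and 0.994.

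The synaptic and secreted effectors are the members whose products act on the synapse itself. All 5 had negative log2 fold changes, from -0.21 to -0.07, and 2 were called. Homer1 (ENSMUSG00000007617, chr13:93299635-93405129, plus strand) encodes a postsynaptic scaffold that ties metabotropic glutamate receptors to other proteins, and it had the smallest p of all members. Control samples were tightly grouped at 84.3 to 89.4 CPM (median 87.4), and the mimic samples had 74.1, 78.7, 76.6, 72.1 and 84.9 CPM. Of these, 4 were well under the lowest control, and mimic replicate 5 lay just above that control. With means of 87.3 ± 1.95 CPM in control and 77.3 ± 4.95 CPM in mimic, Homer1 fell by 11.5% (log2 fold change -0.18, SE 0.035, adjusted p = 0.00491). Counts per gene sum the short and the long transcripts, so which form of Homer1 changed was not measured.

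Arc (ENSMUSG00000022602, chr15:74669083-74672570, minus strand), whose protein removes AMPA receptors from synapses and forms capsids that carry RNA, had 11.2 to 13.7 CPM in control (median 12.3). The mimic samples had 11.1, 10.4, 11.8, 10.4 and 10.99 CPM, and mimic replicate 3 alone exceeded the lowest control. Arc was at 12.5 ± 0.916 CPM in control and 10.9 ± 0.578 CPM in mimic, and it fell by 13.8% (log2 fold change -0.21, SE 0.060). Its adjusted p of 0.0494 lies at the threshold. The call was lost in 14 of 18 alternative fits, among them DESeq2, both other scalings, the authors' normalized table and 9 of 11 fits that left out 1 sample, where the adjusted p reached 0.182. It was kept only without control replicate 5 or mimic replicate 3 among the latter.

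Bdnf, the neurotrophin most closely tied to activity, had 76.9 to 88.6 CPM in control (median 81.6) and 78.1, 77.6, 80.05, 71.1 and 85.4 CPM in mimic. Mimic replicate 4 was the lowest sample of all, and the other 4 lay within the control range (log2 fold change -0.07, 95% interval -0.15 to 0.01, adjusted p = 0.478). Counts summed over its alternative first exons, so the activity-driven promoters were not separated from the others. Nptx2, a secreted pentraxin that clusters AMPA receptors on interneurons, had 20.3 to 25.9 CPM in control (median 23.3) and 24.8, 19.9, 22.9, 20.6 and 18.2 CPM in mimic. Its groups overlapped and it was not called (log2 fold change -0.14, SE 0.072, adjusted p = 0.359). Inhba, the activin A subunit, stood at 1.90 ± 0.164 CPM in control and 1.77 ± 0.254 CPM in mimic, with an adjusted p of 0.745.

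**Figure D2:**
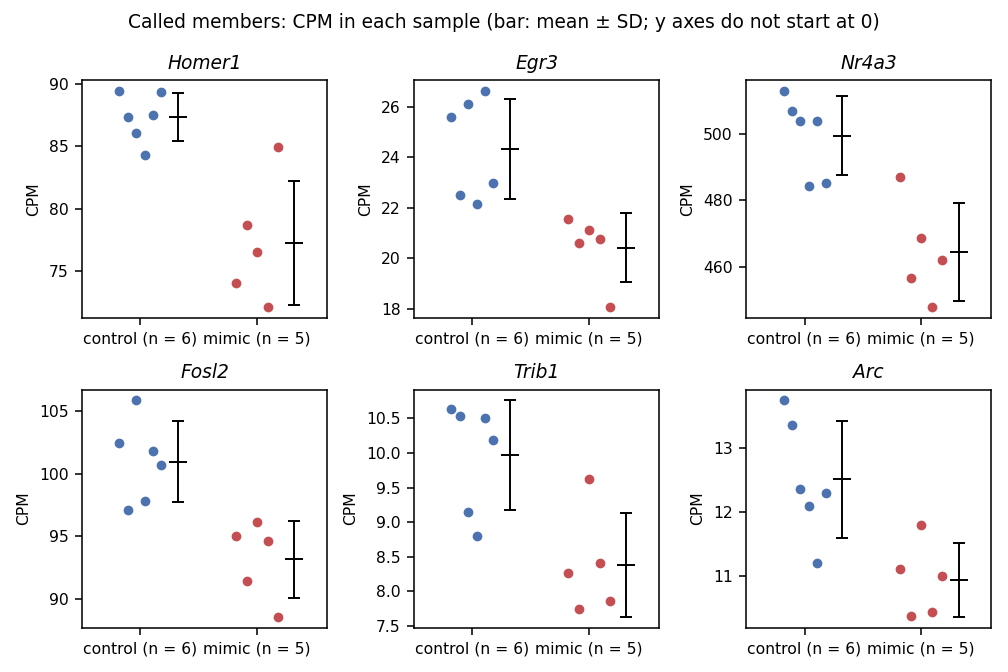
CPM (vertical axes, which do not start at 0) of the 6 called members in each of the 6 control samples (blue) and 5 mimic samples (red), with black bars for the mean ± SD. Egr3 and Fosl2 show no overlap between the groups, and in Homer1, Nr4a3, Trib1 and Arc 1 mimic sample each reaches into the control range.

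The 4 feedback phosphatases, which remove phosphate from MAP kinases, gave 0 calls in edgeR and in DESeq2, and none had an unadjusted p under 0.05. Dusp1, the nuclear phosphatase of the stress-activated kinases, had 8.30 to 9.22 CPM in control (median 8.78) and 9.48, 10.1, 9.41, 9.44 and 9.14 CPM in mimic. All but 1 mimic sample exceeded the highest control, in the direction opposite to the called members, and the difference did not pass the test (log2 fold change 0.11, SE 0.058, adjusted p = 0.389). Dusp1 shares 11 exon bases with the highly expressed Ergic1 on the opposite strand. Dusp4, Dusp5 and Dusp6 had log2 fold changes of -0.03, -0.11 and -0.03. Dusp6, the ERK-specific phosphatase often read as a gauge of ERK activity, was measured closely (70.1 ± 2.30 CPM in control, 68.8 ± 3.601 CPM in mimic), and its 95% interval ran from -0.09 to 0.04.

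Among the 6 kinases, pseudokinases and growth arrest genes, Trib1 was called. Trib1 (ENSMUSG00000032501, chr15:59648350-59657099, plus strand) is a pseudokinase that guides the ubiquitin ligase COP1 to its substrates. It had 8.81 to 10.6 CPM in control (median 10.3) and 8.26, 7.75, 9.63, 8.40 and 7.86 CPM in mimic. Mimic replicate 3 lay among the controls and the other 4 lay below them. Trib1 fell by 16.5% (log2 fold change -0.26, SE 0.070, adjusted p = 0.0381), and the call was lost in 10 of 18 alternative fits, among them the authors' normalized table and 8 of 11 fits that left out 1 sample, with an adjusted p of up to 0.145. Among the latter it was kept without control replicate 3, control replicate 4 or mimic replicate 3.

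Gadd45b, which acts in DNA demethylation at activity-regulated genes, had 6.89 to 7.98 CPM in control (median 7.27) and 7.55, 7.82, 9.09, 8.48 and 6.59 CPM in mimic. Both the lowest and the highest sample were mimic (log2 fold change 0.11, SE 0.074, adjusted p = 0.520). Plk2, a polo-like kinase that weakens synapses after long activity, was among the most closely measured members, at 102 ± 2.44 CPM in control and 103 ± 1.87 CPM in mimic, with a 95% interval of -0.04 to 0.06. Plk3, Sik1 and Gadd45g were not called, with adjusted p of 0.796, 0.719 and 0.943.

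Levels were compared between members per kilobase of exon (RPKM, the CPM divided by the length of all annotated exons in kilobases, which understates genes with long unused exons). Nr4a3 was far ahead in control cultures at 83.4 ± 1.99 RPKM (SD, n = 6), above 97.8% of tested genes. Plk2 at 22.8 ± 0.544 RPKM and Dusp6 at 22.4 ± 0.734 RPKM followed and did not differ beyond their spread, and neither did Jun at 18.7 ± 1.23 RPKM and Jund at 18.5 ± 2.60 RPKM. Among the receptors of the NR4A family the other two were much lower, with 4.56 ± 0.226 RPKM for Nr4a1 and 2.39 ± 0.157 RPKM for Nr4a2. The EGR family ran from Egr1 at 12.6 ± 0.525 RPKM through Egr4 at 9.08 ± 1.12 RPKM and Egr3 at 5.52 ± 0.453 RPKM to Egr2 at 0.427 ± 0.0962 RPKM. Arc and Fos lay in the middle at 4.09 ± 0.300 and 5.15 ± 0.310 RPKM. The lowest were Klf4, Klf2 and Inhba, at 0.344 ± 0.0721, 0.325 ± 0.0982 and 0.298 ± 0.0256 RPKM, whose spreads overlapped.

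**Figure D3:**
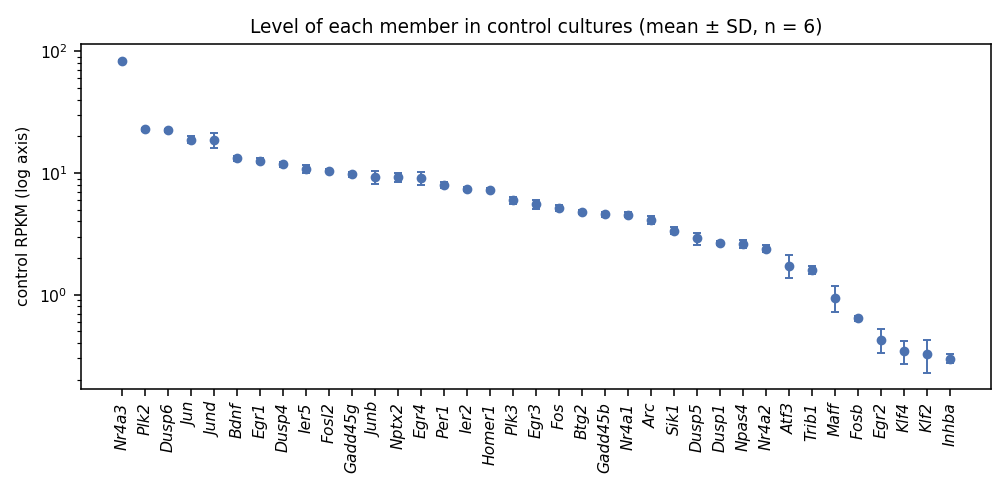
Level of each member in the 6 control samples (RPKM, log axis, mean ± SD), ordered from high to low. Nr4a3 stands apart at 83.4 RPKM, the bulk of the list lies between Plk2 at 22.8 RPKM and Atf3 at 1.73 RPKM, and Egr2, Klf4, Klf2 and Inhba lie under 0.5 RPKM.

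The members also differed in how steady they were between control samples. The 25 members at or above 10 CPM had a median coefficient of variation of 5.88% over the 6 control samples, beside 3.95% for the tested genes at that level. Homer1 (2.23%), Nr4a3 (2.38%) and Plk2 (2.39%) were the steadiest and Jund (14.0%) was the least steady of these. Over all 37 members the median was 6.56%, beside 6.41% over all tested genes, and levels above 10 CPM were not matched more closely. Samples differed in the list as a whole. In control replicates 4 and 6, 28 and 29 of the 37 members lay below the control mean, whereas in control replicates 1 and 5 only 11 and 10 did. Of the mimic samples, replicate 5 was the lowest of its group in 15 members and replicate 1 the highest of its group in 15. The summed level of the members was 1422 to 1499.9 CPM in control and 1363 to 1448 CPM in mimic, so these sums overlapped.

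The 7 members with a 7-base seed match all had negative log2 fold changes, with a median of -0.11, and 3 of them (Egr3, Homer1 and Nr4a3) were called lower. Among the 30 members without it, 17 were negative, the median was -0.0074, and 3 (Fosl2, Trib1 and Arc) were called lower. None of Fosl2, Trib1 and Arc was called without control replicate 1 or mimic replicate 2, 4 or 5, or with the replicate block. In those fits 2 or 3 members with a match were called. Over all tested genes, division by the match gave 4.26% called lower of 2793 genes with a match, with a median of -0.023. Of 11719 genes with a 3′ UTR but no match 1.49% were called lower, with a median of 0.0054. Negative log2 fold changes made up 62.9% of the tested genes with a match and 47.1% of those without. The Egr3 site, the only 8-base match of the list, belongs to the member with the second most negative value after Trib1. Of the members the study's own target prediction lists for miR-181a-5p there are 8 (Fos, Egr1, Egr3, Nr4a3, Dusp5, Dusp6, Homer1 and Inhba), which is 21.6% of the list beside 5.85% of tested genes. All 8 had negative log2 fold changes (median -0.11) and 3 were called lower, the same 3 that hold a 7-base match. Of all 1016 tested genes on that prediction list, 72.8% had negative log2 fold changes (median -0.035) and 6.99% were called lower, beside 48.7% (median 0.0027) and 1.44% of the 16349 tested genes not on it.

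What the promoters share was read from RefSeq windows on GRCm38.p6 that run from 250 bases before to 50 bases after each annotated start. A window was given for 29 members. Arc, Dusp4, Egr1, Egr3, Ier2, Nptx2, Sik1 and Trib1 had none in that table. The cAMP response element (CRE) TGACGTCA, where CREB binds, was present in 4 of the 29 members (13.8%), namely Btg2, Dusp1, Maff and Plk2, and in 2.03% of 27025 genes. Its 5-base core TGACG, searched on both strands and contained in every full element, was present in 21 members (72.4%) and in 23.0% of genes. The members' windows were richer in G and C (median 62.0% beside 52.7%) and more numerous per gene, and counted per window the core was in 58.1% of 43 member windows and 20.8% of 32851 windows. The site GCGGGGGCG bound by EGR proteins was in 5 members (17.2%) beside 3.31% of genes, and the TATAAA box in 6 (20.7%) beside 15.7%. The CArG box of SRF was in 2 (6.90%) beside 1.81%, the AP-1 site TGANTCA in 1 (3.45%) beside 8.97%, and the NR4A site AAAGGTCA in 0 beside 1.70%. These are matches of letters in a short window and say nothing of binding.

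**Figure D4:**
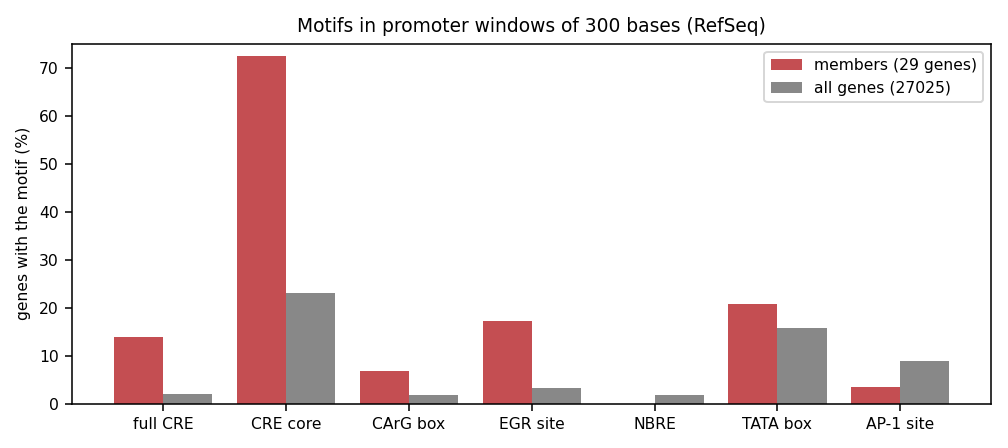
Share of genes (%) with each motif in a RefSeq promoter window of 300 bases, for the 29 members with a window (red) and all 27025 genes (grey). The CRE core shows the widest gap, 72.4% against 23.0%.

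The windows of Nr4a3 and Homer1, the called members that hold the core, and of Fos, the most used marker, are shown 5′ to 3′ on the plus strand, with TGACG and its reverse complement in capitals. The core occurs 4 times in Nr4a3, 3 times in Homer1 and 2 times in Fos. Homer1 has another window, chr13:93307784-93308083, with 0 matches of the core, which is not shown.
Nr4a3, chr4:48045055-48045354: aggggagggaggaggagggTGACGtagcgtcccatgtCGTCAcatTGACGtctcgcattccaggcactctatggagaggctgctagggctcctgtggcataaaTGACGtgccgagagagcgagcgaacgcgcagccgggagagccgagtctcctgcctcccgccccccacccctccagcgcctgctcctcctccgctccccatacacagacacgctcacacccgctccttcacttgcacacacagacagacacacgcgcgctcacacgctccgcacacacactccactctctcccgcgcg
Homer1, chr13:93303507-93303806: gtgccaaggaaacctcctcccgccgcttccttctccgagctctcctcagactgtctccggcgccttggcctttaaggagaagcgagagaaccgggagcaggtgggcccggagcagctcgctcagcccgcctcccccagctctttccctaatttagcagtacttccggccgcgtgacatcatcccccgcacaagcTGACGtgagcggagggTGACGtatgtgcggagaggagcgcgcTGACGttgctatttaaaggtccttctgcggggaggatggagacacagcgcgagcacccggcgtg
Fos, chr12:85473640-85473939: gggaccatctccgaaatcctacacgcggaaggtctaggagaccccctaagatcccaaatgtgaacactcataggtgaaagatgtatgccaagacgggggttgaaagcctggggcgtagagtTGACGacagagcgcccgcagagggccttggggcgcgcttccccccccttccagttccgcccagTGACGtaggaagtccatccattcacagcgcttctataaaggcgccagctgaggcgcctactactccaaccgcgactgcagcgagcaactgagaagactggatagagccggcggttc

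Genes that carry the signal from the membrane to these promoters were read from a list of 52 upstream components. Of these, 8 (15.4%) were called lower by edgeR, beside 1.77% of all tested genes and 2.93% of those at or above 10 CPM. In the higher direction 0 were called, 2 had an unadjusted p under 0.05 and DESeq2 also called 0. The median log2 fold change was -0.024. Fewer were called with upper-quartile scaling or the replicate block, and the count could fall when 1 sample was left out. This list, like the further one below, was chosen with earlier results of these data known. Its share of calls is therefore not an independent test. The called genes included the NMDA receptor subunit genes Grin2a and Grin2b. Grin2a went from 145 ± 3.31 to 125 ± 3.65 CPM (log2 fold change -0.21, adjusted p = 9.95e-05). Grin2b went from 928 ± 36.7 to 849 ± 35.5 CPM (-0.13, adjusted p = 0.0145). Another subunit gene on the list, Grin1, was not called and had a positive value (0.053, adjusted p = 0.722). The calcium/calmodulin-dependent kinase genes Camk4 and Camk2a had log2 fold changes of -0.11 and -0.09 (adjusted p = 0.0113 and 0.0305). The remaining called genes were Mkl2, an SRF coactivator (-0.13, adjusted p = 0.0180), Rps6ka3, the kinase RSK2 (-0.12, adjusted p = 0.0227), Crebbp, the CREB-binding acetyltransferase (-0.13, adjusted p = 0.0340), and Adcy1, the calcium-stimulated adenylyl cyclase (-0.09, adjusted p = 0.0417). Of 50 tested genes in a list of further activity-regulated genes, 2 were called lower, the pentraxin Nptx1 (-0.12, adjusted p = 0.0163) and the prohormone convertase Pcsk1 (-0.14, adjusted p = 0.0414), and 0 higher, with 1 at an unadjusted p under 0.05 and 0 in DESeq2. That is 4.00% of the tested list lower.

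The summed cell type markers separated the groups for neurons, astrocytes and fibroblast and vascular cells, but overlapped for the oligodendrocyte lineage and microglia. The summed level of 11 neuron markers was 9202 to 9397 CPM in control and 8958 to 9100 CPM in mimic (log2 ratio of the means -0.037), and that of 8 astrocyte markers 4855 to 5299 CPM and 4454 to 4770 CPM (-0.12). Of 9 fibroblast and vascular markers, of which 8 were tested, the sum was 245 to 374 CPM in control and 384 to 516 CPM in mimic (0.43). The 8 oligodendrocyte lineage markers summed to 314 to 379 CPM and 287 to 331 CPM, and the 8 microglia markers to 15.1 to 16.2 CPM and 14.7 to 15.9 CPM. Within these lists Slc17a7, a neuronal glutamate transporter, Slc1a2 and the pericyte gene Rgs5 were called lower and Cdh5, an endothelial cadherin, higher, while the myelin gene Mag and the endothelial gene Cldn5 were too low to be tested (0.0384 and 0.0035 CPM in control, 0.0794 and 0 CPM in mimic). Of the 8 tested fibroblast and vascular markers, 7 had positive log2 fold changes, with a median of 0.46. Single neuron markers had log2 fold changes from -0.138 to 0.038, with 9 of 11 below 0. Those of single astrocyte markers ran from -0.185 to 0.055, with 6 of 8 below 0. The part of these shifts in the members' differences was not tested.

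The calls differed in how far they depended on single samples and on the fit. Homer1 and Egr3 were called in all 18 alternatives, Nr4a3 in 15, Fosl2 in 11, Trib1 in 8 and Arc in 4, and no alternative called any other member. Without control replicate 1, mimic replicate 2 or mimic replicate 4, 2 members were called, and without mimic replicate 5, 3.

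**Figure D5:**
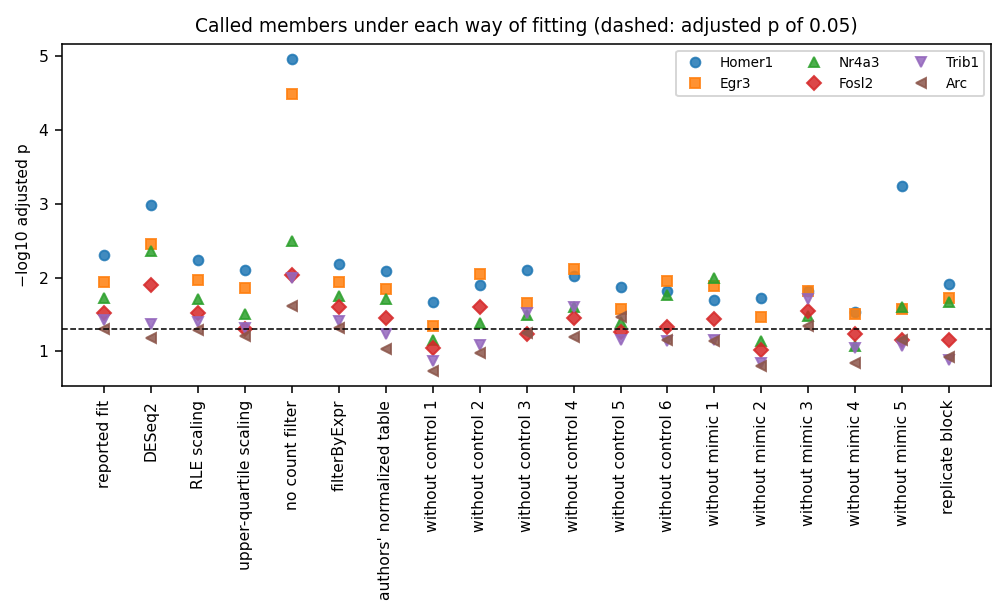
The -log10 adjusted p (vertical axis) of the 6 called members in the reported fit and in 18 alternatives (horizontal axis), with a dashed line at an adjusted p of 0.05. Homer1 and Egr3 lie above the line throughout, and Arc lies under it in 14 of the 18 alternatives.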

How the data were processed

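RNA was sequenced from 6 control and 5 mimic samples, each grouped by its label. The authors prepared TruSeq v2 libraries from polyA RNA, sequenced 50 bp single-end reads, mapped them to mm10 with STAR 2.5.2b and counted reads per Ensembl gene with featureCounts (Subread 1.5.1), per the submitters' processing notes; they deposited raw counts per sample. Annotation release and multi-mapping options are not given in the sources used here. The deposited normalized signal table equals those counts divided by 1 size factor per sample (relative deviation at most 4.94e-10), holds 16921 genes and served 1 alternative, as log2(value + 1) with limma 3.58.1; 0 of its columns lacked a sample.

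A gene was tested if 50% or more of the samples had 5 or more counts (17365 genes) with edgeR 4.0.16 in R 4.3.3: TMM scaling, robust quasi-likelihood fit on group, two-sided, Benjamini-Hochberg adjustment over all genes, called under 0.05. Filter and threshold follow the study's methods, whose tool, DESeq2 (1.42.0 here), was an alternative. SE is the log2 fold change over the square root of F. Intervals (95%) assume a normal error. Symbols, exon lengths and 3′ UTRs came from GENCODE M21 (48349 of 48709 identifiers matched). No 2 samples of a group agreed within sampling noise (smallest chi-square per degree of freedom 1.23 over 25 pairs). The pipeline was tested on simulated data.

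The members, lists and rules were chosen with earlier results of these data known. Sample values are given for called members, 12 much used markers (Fos, Fosb, Junb, Egr1, Egr2, Arc, Npas4, Nr4a1, Bdnf, Homer1, Nptx2 and Dusp1) and the 5 further members with the smallest p, and called genes are named from the upstream and further activity-regulated lists. Alternatives were DESeq2, other scalings and filters, the authors' table, leaving out each sample, a replicate block, medians for means of levels, and the 8-base match.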

Additional observations from a re-analysis of the deposited data

Results flagged for a closer look

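In 7 of 74 groups of samples, 1 sample of a member lay far from the others of its group by Dixon's test, where chance alone gives about 3.7. Mimic replicate 5 had 18.1 CPM of Egr3, and the nearest mimic sample had 20.6 CPM. Mimic replicate 4 had 13.3 CPM of Nr4a1 against 15.2 CPM in the nearest. For Ier2, control replicate 6 had 10.5 CPM and the nearest control 11.2 CPM. Gadd45g stood out in control replicate 3 (12.6 CPM, nearest 11.4 CPM) and in mimic replicate 3 (13.4 CPM, nearest 11.4 CPM). Control replicate 2 had 2.22 CPM of Inhba, with 1.93 CPM in the nearest control, and mimic replicate 3 had 4.06 CPM of Maff, with 2.99 CPM in the nearest mimic sample. Egr3 is the only called member in this set, and it was also called without mimic replicate 5.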

How the results depend on the processing

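Of the 37 members, 31 were not called in the reported fit or in any of the 18 alternatives. The calls made were always among the 6 reported: 5 under DESeq2, other size factors (RLE) or upper-quartile scaling, 6 without a count filter or with filterByExpr, and 4 in the authors' table. Leaving out 1 sample gave 2 to 6 members called, 0 to 3 members without a seed match called (1 in the authors' table), 2 to 8 upstream genes called and 0 to 2 further activity-regulated genes called. Upper-quartile scaling gave 5 upstream genes and 1 further gene, and 1 further gene was called from the authors' values. With an 8-base match required, 1 member with a match was called. Upper-quartile scaling also moved the split of all calls from 307 lower and 188 higher to 226 and 234, leaving out control replicate 4 gave 199 and 201, and the replicate block 154 and 174.

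Replicate numbers did not pair the samples: deviations of same-numbered samples correlated between -0.023 and 0.016. With the replicate block, 3 members were called (Egr3, Nr4a3 and Homer1, not Fosl2, Trib1 or Arc), of them 0 without a seed match, with 4 upstream genes and 1 further gene.

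The direction turned for 9 uncalled members, with adjusted p of at least 0.723. Under the block it turned for Fosb (0.022), Jun (-0.0097), Junb (-0.034) and Npas4 (-0.011), for Ier5 under RLE (0.00028) and upper-quartile scaling (0.0087), and for Nr4a2 in DESeq2 (0.0024), the authors' table (0.0014) and upper-quartile scaling (0.0078). Leaving out 1 sample gave the ranges -0.20 to 0.017 for Egr2, -0.14 to 0.057 for Fosb, -0.029 to 0.043 for Gadd45g, -0.030 to 0.029 for Ier5, -0.012 to 0.036 for Jun, -0.042 to 0.061 for Junb, -0.016 to 0.051 for Npas4, -0.050 to 0.075 for Nr4a2, -0.00030 to 0.044 for Per1. The cause was not tested.

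Counts per gene do not separate transcripts, and overlapping genes on the opposite strand touch Junb, Jun, Jund, Bdnf, Dusp1, Dusp5 and Plk3. The 7 members with under 100 counts in some sample have the widest intervals. All samples come from 1 time point without a stimulus.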
